A study of Mus musculus with 8 samples.

Results

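The genes described here are 10 regulators of entry into and exit from the cell cycle: the CDK inhibitors Cdkn1a, Cdkn1b, Cdkn1c, Cdkn2c and Cdkn2d, the D cyclins Ccnd1, Ccnd2 and Ccnd3, the retinoblastoma gene Rb1 and Trp53. They were taken by name, though with earlier results of these data known, from the 54307 gene identifiers of the gene table. All 10 passed the filter on low counts that left 17669 genes to be tested. RNA came from the microdissected periventricular area of 1 hemisphere, which holds the ventricular-subventricular zone (V-SVZ), of 4 Lrig1 KO mice and 4 WT mice. All 8 mice were 8 weeks old and on a 129-Elite strain background. In the KO mice both Lrig1 alleles carried CreERT2 knocked into exon 1 (a constitutive knockout), and the controls were littermates with wild-type alleles and no CreERT2. WT replicates 1, 3 and 4 and KO replicates 2 and 4 were female, and WT replicate 2 and KO replicates 1 and 3 were male.

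As background, a resting cell enters the cycle when D cyclins, induced by growth factors, activate CDK4 and CDK6, which with CDK2 phosphorylate the Rb protein and release E2F transcription factors. Inhibitors of the INK4 family bind CDK4 and CDK6, and inhibitors of the Cip/Kip family bind cyclin-CDK complexes more broadly, while p53, the product of Trp53, induces Cdkn1a after DNA damage. In the adult V-SVZ most neural stem cells (NSCs) are quiescent, and p27, p57 and p21 (from Cdkn1b, Cdkn1c and Cdkn1a) are known for holding stem and progenitor cells there out of the cycle. Many of these proteins are set by degradation and phosphorylation, which RNA levels do not show.

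The libraries held 47887437 to 61826150 estimated gene counts in WT and 52664769 to 74482334 in KO, and each of the 10 genes had at least 140 counts in every mouse. Lrig1 itself stood at 45.6, 13.5, 41.4 and 34.3 CPM (counts scaled to the size of the library) in WT replicates 1 to 4 and at 1.41, 4.15, 1.17 and 2.96 CPM in KO replicates 1 to 4, so every mouse lay on the side of its label. Its log2 fold change was -3.80 (SE 0.52), with an adjusted p of 0.286 in the edgeR quasi-likelihood test, above the threshold of 0.1 that the study used. With DESeq2 the study itself reported Lrig1 as the down-regulated gene of strongest significance. The edgeR fit used here thus did not call the loss of the targeted gene, which limits what 0 calls in that fit can show. Markers of the cell types of the V-SVZ were all detected: summed over each list, markers of astrocytes and NSCs lay between 3687 and 4517 CPM, of transit-amplifying progenitors between 31.4 and 40.9 CPM, of neuroblasts between 107.6 and 166.0 CPM and of ependymal cells between 22.5 and 54.3 CPM. Of 68 marker genes of 12 cell types, 0 passed an adjusted p of 0.1 between KO and WT in edgeR. An unadjusted p under 0.05 was seen for 4 (against 1.88% of all genes tested), all lower in KO (Gfap, Cspg4, Csf1r and Pdgfrb). Of all 333 genes with such a p, 190 were lower in KO. In the lists that hold these markers, genes above and below 0 numbered 3 and 4 for astrocytes and NSCs and 1 and 6 for microglia. They numbered 0 and 4 for oligodendrocyte precursors and 0 and 4 for mural cells. Markers of neighbouring brain regions varied between mice. Those of cortical excitatory neurons summed to between 41.6 and 1777 CPM and those of striatal neurons to between 2354 and 7568 CPM. How much neighbouring tissue each sample held was not measured. The tissue is a mix of cell types, in which fewer cells of a type and less RNA per cell cannot be told apart.

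Sequence bore on these genes in how far their reads can be told apart and in where their transcripts start. The D cyclins are close relatives, and the stretches below are shown because they are the longest runs of identical bases between the coding sequences of each pair (in capitals, with up to 20 flanking bases on either side, 5′ to 3′, from Gencode M21 transcripts). Ccnd1 and Ccnd2 shared at most 20 bases in a row (coding bases 133 to 152 of Ccnd1 and 127 to 146 of Ccnd2), Ccnd1 and Ccnd3 17 bases and Ccnd2 and Ccnd3 14 bases, the last run starting at the initiation codon.
Ccnd1 (with Ccnd2): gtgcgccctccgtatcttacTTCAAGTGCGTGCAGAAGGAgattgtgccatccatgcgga
Ccnd2 (with Ccnd1): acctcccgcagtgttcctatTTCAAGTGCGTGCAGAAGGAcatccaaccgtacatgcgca
Ccnd1 (with Ccnd3): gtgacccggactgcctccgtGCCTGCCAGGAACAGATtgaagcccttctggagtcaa
Ccnd3 (with Ccnd1): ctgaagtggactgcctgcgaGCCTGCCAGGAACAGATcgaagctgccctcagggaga
Ccnd2 (with Ccnd3): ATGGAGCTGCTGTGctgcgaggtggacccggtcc
Ccnd3 (with Ccnd2): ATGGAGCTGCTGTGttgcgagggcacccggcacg
Over all transcripts of the 10 genes, 0 stretches of 31 bases were shared between any 2 of them. Between 0 and 4.32% of the 31-base stretches of a gene recurred in a gene outside the 10, apart from Trp53 with 10.1%. Those of Trp53 and Ccnd3 lay mainly in the processed pseudogenes Trp53-ps and Ccnd3-ps.

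Cdkn1a has 2 annotated start sites, 2790 bases apart on chromosome 17, and the windows around both are shown because they differ in the motifs they hold and in the RNA that begins there (RefSeq, GRCm38.p6, plus strand, 250 bases before and 50 after each start, 5′ to 3′). The motifs searched for on both strands were the GC box GGGCGG, the E2F sites TTTCCCGC and TTTGGCGC, the TATA box TATAAA and the p53 consensus element, a pair of adjacent half-sites with exact cores and at most 1 mismatch elsewhere. Capitals mark every match.
Cdkn1a upstream start, chr17:29090729-29091028: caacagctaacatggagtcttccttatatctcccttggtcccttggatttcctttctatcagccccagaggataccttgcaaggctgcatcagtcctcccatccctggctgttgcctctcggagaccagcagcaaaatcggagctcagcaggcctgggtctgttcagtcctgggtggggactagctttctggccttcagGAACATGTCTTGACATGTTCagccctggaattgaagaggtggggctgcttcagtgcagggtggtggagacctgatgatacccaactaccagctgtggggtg
Cdkn1a downstream start, chr17:29093519-29093818: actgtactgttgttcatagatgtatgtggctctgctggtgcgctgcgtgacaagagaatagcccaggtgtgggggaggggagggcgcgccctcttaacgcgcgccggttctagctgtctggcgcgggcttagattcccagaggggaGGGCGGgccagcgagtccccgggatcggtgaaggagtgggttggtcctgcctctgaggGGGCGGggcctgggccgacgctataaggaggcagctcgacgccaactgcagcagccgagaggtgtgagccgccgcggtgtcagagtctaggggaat
The upstream window held 1 match to the p53 consensus, which 18 of 32851 such windows in the genome held (0.0548%), and none of the other motifs. The downstream window held 2 GC boxes, found in 35.7% of windows. The upstream window lies 2790 bases before the downstream one, and sequence outside these windows was not searched. Which start the p53 match acts on was not tested. The data put nearly all Cdkn1a RNA at the downstream start, with 94.3% to 100% of the gene's TPM (a level corrected for transcript length and library size) in each mouse. Transcripts that begin in the upstream window reached 0.287, 0, 0.364 and 0.0862 TPM in WT replicates 1 to 4 and 0, 0.0583, 0.0525 and 0.135 TPM in KO replicates 1 to 4. These are low estimates at which the genotypes overlapped.

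Cdkn2c also has 2 RefSeq starts, 1384 bases apart on the minus strand of chromosome 4. Both annotated transcripts of the gene were present, though neither begins in the window around the outer start. The windows are shown, marked in the same way, because only the outer one held any of these motifs, 4 GC boxes.
Cdkn2c outer start, chr4:109666707-109667006: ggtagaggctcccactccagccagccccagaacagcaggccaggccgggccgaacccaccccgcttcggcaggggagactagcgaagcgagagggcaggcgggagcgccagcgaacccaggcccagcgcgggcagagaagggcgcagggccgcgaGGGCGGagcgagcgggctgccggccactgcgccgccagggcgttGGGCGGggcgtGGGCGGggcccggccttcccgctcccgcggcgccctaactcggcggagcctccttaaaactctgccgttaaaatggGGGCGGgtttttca
Cdkn2c inner start, chr4:109665323-109665622: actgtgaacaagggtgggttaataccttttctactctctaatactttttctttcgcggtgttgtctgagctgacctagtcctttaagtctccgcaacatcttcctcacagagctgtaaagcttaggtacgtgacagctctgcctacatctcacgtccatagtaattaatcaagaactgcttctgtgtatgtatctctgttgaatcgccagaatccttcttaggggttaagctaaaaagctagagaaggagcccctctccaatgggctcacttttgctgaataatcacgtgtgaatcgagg
The short transcript of 1106 bases, which begins in the inner window, carried 58.7% ± 4.0 of Cdkn2c TPM in WT and 57.6% ± 8.3 in KO (SD, n = 4 each). The remainder came from a transcript of 2471 bases, whose annotated start lies in neither window. No mouse had less than 47.2% or more than 67.0% from the short form, and the genotypes overlapped.

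Ranked by TPM, which allows genes of different length to be compared, Cdkn2d was the most abundant of the 10 and Cdkn2c the least, so the INK4 family held both ends of the order. Cdkn2d, which encodes p19INK4d, averaged 41.9 ± 5.3 TPM (SD, n = 8) and lay above Ccnd2 in 8 of 8 mice. Ccnd2 followed with 27.6 ± 4.5 TPM, and Cdkn1b, at 26.2 ± 2.6 TPM, could not be told from it, since Ccnd2 was the higher of the pair in 5 of 8 mice. Both stood clear of the next gene, as the lowest Cdkn1b value, 21.6 TPM, exceeded the highest Trp53 value, 18.3 TPM. Trp53 (14.8 ± 1.8 TPM), Ccnd1 (13.6 ± 2.2), Ccnd3 (13.3 ± 2.4) and Cdkn1a (13.0 ± 2.5) formed a middle group in which each neighbour was the higher in only 6, 5 and 4 of 8 mice. Rb1 lay below Cdkn1a in 8 of 8 mice at 9.18 ± 1.2 TPM. Cdkn1c (5.89 ± 2.1 TPM) and Cdkn2c (3.27 ± 0.93 TPM) closed the order, each below its upper neighbour in 8 of 8 mice.

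**Figure D1:**
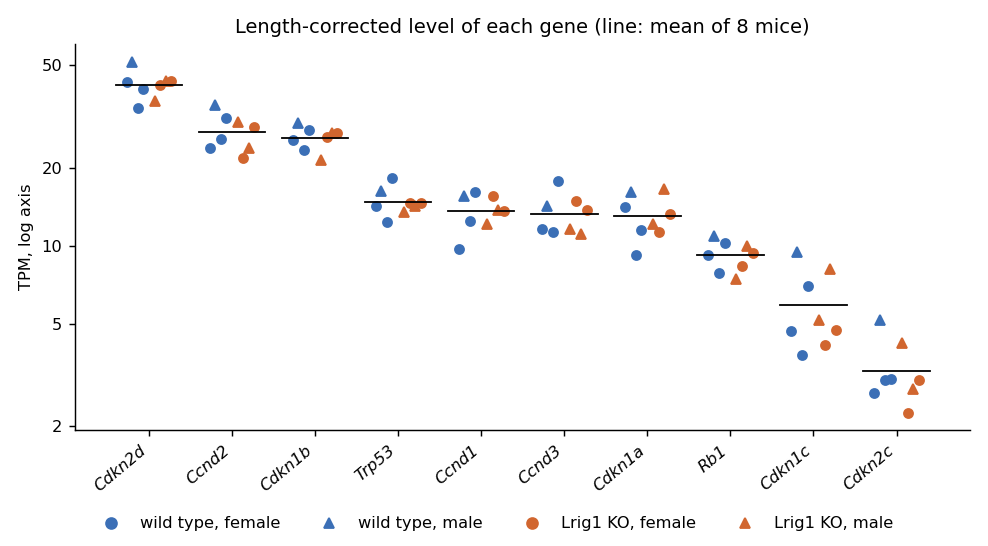
TPM of each gene (log axis) in each of 8 mice, ordered by the mean over mice (line), with WT in blue, KO in orange, females as circles and males as triangles. Cdkn2d lay between 34.3 and 51.8 TPM and Cdkn2c between 2.26 and 5.14 TPM, and WT and KO points overlapped for each gene.

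Within families the make-up was alike in the 2 genotypes. Cdkn1b gave 59.1% ± 4.4 of the summed Cip/Kip TPM in WT and 57.8% ± 4.7 in KO (SD, n = 4 each), with Cdkn1a next at 27.7% ± 3.4 and 29.8% ± 2.1. Ccnd2 gave 51.7% ± 2.7 of D cyclin TPM in WT and 49.5% ± 5.9 in KO. Ccnd1 held 23.8% ± 1.6 of it in WT and 26.2% ± 3.3 in KO, and Ccnd3 24.4% ± 2.5 and 24.3% ± 3.0. Cdkn2d made up between 89.6% and 94.9% of the TPM of the pair Cdkn2c and Cdkn2d in every mouse. The ranges of WT and KO overlapped for each of these shares.

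Of the 10 genes, 0 differed between KO and WT at an adjusted p under 0.1 in edgeR, and 0 had an unadjusted p under 0.05. Over all genes tested 0.00566% passed the first threshold, which is 1 gene, and 1.88% the second. DESeq2, with or without sex as a covariate, also gave 0 of 10 at either threshold, while DESeq2 with sex called 1.13% of all genes at the first. WT and KO values overlapped for 10 of 10 genes, against 1.53% of all genes tested with no overlap. The median log2 fold change was -0.05 over the 10 genes and -0.0009 over all genes tested. Of the 10 genes 3 lay above 0 and 7 below, and of all 17669 genes tested 8786 lay above 0 and 8883 below. The lowest unadjusted p was 0.346 and the adjusted p was 0.9998 for each of the 10, in edgeR's test. The intervals of the difference were narrow for some of the 10 genes and wide for others.

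**Figure D2:**
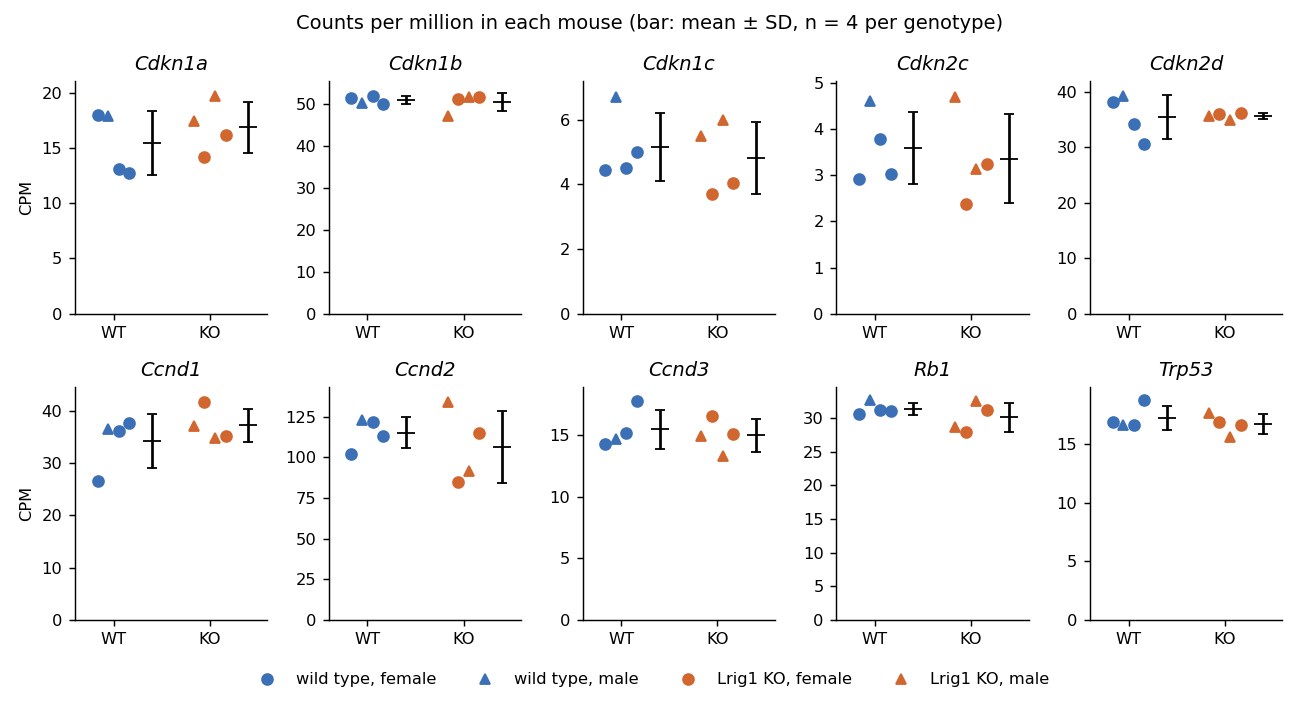
CPM of each gene in each mouse (linear axes from 0), WT in blue and KO in orange, females as circles and males as triangles, with the mean and SD of 4 mice beside each group. The groups overlapped in 10 of 10 panels, from the narrow spread of Cdkn1b (47.2 to 52.0 CPM) to the wide one of Ccnd2 (85.0 to 133.8 CPM).

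Among the Cip/Kip inhibitors, Cdkn1b was the steadiest. It encodes p27, which binds cyclin E-CDK2 and restrains progenitor division. It stood at 51.5, 50.3, 52.0 and 49.9 CPM in WT replicates 1 to 4 and at 47.2, 51.2, 51.7 and 51.6 CPM in KO replicates 1 to 4. All mice but KO replicate 1, which was lower, thus fell between 49.9 and 52.0 CPM. The log2 fold change was -0.01 (SE 0.058), with a 95% interval from -0.14 to 0.12, or 0.904-fold to 1.08-fold. Only 0.623% of all genes tested had a smaller standard error. Cdkn1b and Ccnd2 lie on chromosome 6, which also holds Lrig1.

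Cdkn1a encodes p21, the best known target of p53. Its CPM were 18.0, 17.8, 13.1 and 12.8 in WT replicates 1 to 4 and 17.4, 14.2, 19.7 and 16.2 in KO replicates 1 to 4. The WT mice split into a high and a low pair, and all 4 KO mice lay above the low pair, on either side of the high one. The log2 fold change was 0.13 (SE 0.15; 95% interval -0.22 to 0.48).

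Cdkn1c encodes p57 and is an imprinted gene, expressed from the maternal allele. It was low, with between 211 and 452 counts, and stood at 4.46, 6.71, 4.50 and 5.02 CPM in WT replicates 1 to 4 and at 5.51, 3.71, 5.99 and 4.05 CPM in KO replicates 1 to 4. Within each genotype the males were the highest. The log2 fold change was -0.10 (SE 0.20; 95% interval -0.56 to 0.35). It was -0.25 (SE 0.11, adjusted p = 0.723 in edgeR) with sex as a covariate and 0.02 with the cortical marker level as a covariate.

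Of the INK4 genes, Cdkn2d was the more tightly measured. Cdkn2d CPM were 38.0, 39.2, 34.2 and 30.5 in WT replicates 1 to 4 and 35.6, 36.0, 34.9 and 36.1 in KO replicates 1 to 4. The KO mice lay close together inside the WT range, with a coefficient of variation of 1.50% against 11.2% in WT. Its log2 fold change was 0.006 (SE 0.086; 95% interval -0.19 to 0.20).

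Cdkn2c, which encodes p18INK4c, was the least abundant and had the widest interval. Its CPM were 2.91, 4.62, 3.79 and 3.04 in WT replicates 1 to 4 and 4.69, 2.37, 3.14 and 3.25 in KO replicates 1 to 4. The highest and the lowest value of all 8 mice were both in the KO group. The log2 fold change was -0.10 (SE 0.23), and the interval from -0.63 to 0.43 leaves room for 0.648-fold to 1.35-fold. The other INK4 genes sit side by side at 1 locus and are known for rising in aged and senescent cells. Cdkn2b, which encodes p15, reached 0.408 to 0.661 CPM in WT and 0.525 to 0.676 CPM in KO, with a log2 fold change of 0.28 (SE 0.23, adjusted p = 0.9998 in edgeR). Cdkn2a, which encodes p16INK4a and p19ARF, had 0 to 4 counts per mouse and was not tested.

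Ccnd2 took the most reads of the 10 genes and spread more widely among KO than among WT mice. It encodes cyclin D2, known for its part in adult neurogenesis. Ccnd2 stood at 102, 123, 122 and 113 CPM in WT replicates 1 to 4 and at 133.8, 85.0, 91.6 and 115 CPM in KO replicates 1 to 4. KO replicate 1 was the highest and KO replicate 2 the lowest of all mice. The SD was 22.4 CPM in KO and 9.56 CPM in WT, and the log2 fold change -0.11 (SE 0.14; 95% interval -0.44 to 0.21).

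Ccnd1 encodes cyclin D1, a target of growth factor signalling. Its CPM were 26.7, 36.6, 36.3 and 37.8 in WT replicates 1 to 4 and 37.1, 41.7, 34.9 and 35.3 in KO replicates 1 to 4. WT replicate 1 lay well below the other 7 mice. The log2 fold change of 0.12 (SE 0.12; 95% interval -0.15 to 0.39) was 0.02 without that mouse.

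Ccnd3 encodes cyclin D3. It ranged from 14.2 to 17.8 CPM in WT, with replicate 4 the highest, and from 13.3 to 16.6 CPM in KO. Its log2 fold change was -0.05 (SE 0.10; 95% interval -0.28 to 0.19).

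Rb1 and Trp53 were among the better measured genes. Rb1, whose protein holds E2F factors inactive, stood at 30.5, 32.7, 31.1 and 31.1 CPM in WT replicates 1 to 4 and at 28.7, 28.0, 32.5 and 31.2 CPM in KO replicates 1 to 4. KO replicates 1 and 2 were the lowest of all mice. The log2 fold change was -0.06 (SE 0.071), with an interval from -0.22 to 0.10 or 0.858-fold to 1.07-fold. Trp53 lay at 16.9, 16.7, 16.6 and 18.8 CPM in WT replicates 1 to 4 and at 17.7, 16.9, 15.6 and 16.6 CPM in KO replicates 1 to 4. Its log2 fold change was -0.04 (SE 0.078; 95% interval -0.22 to 0.13). Trp53-ps had 0 counts in every mouse and Ccnd3-ps at most 3.

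**Figure D3:**
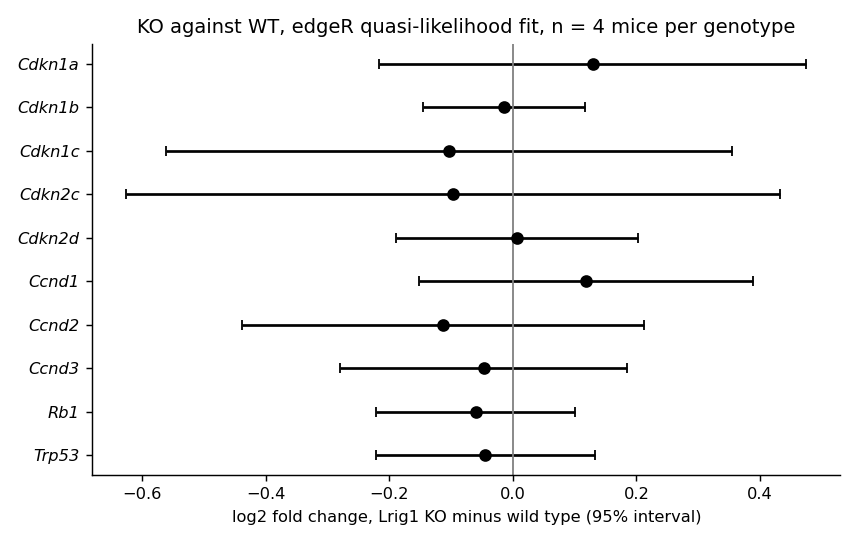
Log2 fold change of each gene, KO minus WT, with its 95% interval from the edgeR fit of 4 KO and 4 WT mice. The interval of Cdkn1b, from -0.14 to 0.12, was the narrowest and that of Cdkn2c, from -0.63 to 0.43, the widest, and each interval held 0.

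The transcripts behind these gene totals were estimates of Salmon and carry its uncertainty among overlapping forms. In 8 of the 10 genes, all but Cdkn1c and Cdkn2c, the leading form gave most of the TPM in every mouse. Transcripts beginning at the main start gave between 86.3% and 100% of Cdkn1b TPM and between 68.7% and 87.2% of Ccnd3 TPM. The main Ccnd2 form, of 6330 bases, gave 84.5% ± 1.7 in WT and 81.9% ± 2.3 in KO (SD, n = 4 each). The main Rb1 form gave at least 95.3% in every mouse and the main Trp53 form between 89.2% and 93.2%. Cdkn1c was spread over 5 forms, and the leading one gave 38.5% to 75.1%. For each of these shares the WT and KO mice overlapped.

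Whether the difference between KO and WT depended on sex was asked with a genotype by sex term, which rests on 1 male WT mouse. In this test 0 of 10 genes passed an adjusted p of 0.1, with 0.00566% of all genes passing, and 0 had an unadjusted p under 0.05 against 7.48% of all genes. The lowest unadjusted p in edgeR was 0.242, for Cdkn2d.

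The sexes, which the study did not compare and which were examined after the values had been seen, differed in 1 of the 10 genes. With genotype in the model, Cdkn1c was higher in males than in females by 0.55 on the log2 scale (SE 0.11; 95% interval 0.29 to 0.81; adjusted p = 0.0575 in edgeR). The 3 males lay between 5.51 and 6.71 CPM and the 5 females between 3.71 and 5.02 CPM, with no overlap. Over all genes 3.72% passed this test and 2.87% passed it with males higher, while the sexes did not overlap in 7.5% of genes and did so with males higher in 4.7%. The adjusted p rose to 0.585 when WT replicate 2 was left out, and it was under 0.1 in 2 of the 8 fits that each left out 1 mouse. In KO mice alone the difference was 0.56 (adjusted p = 0.614 in edgeR).

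Cdkn2c was the other 1 of 2 genes with an unadjusted p under 0.05 between the sexes, against 15.9% of all genes. Males exceeded females by 0.49 on the log2 scale (SE 0.19), with an adjusted p of 0.260 in edgeR, and the sexes overlapped, since KO replicate 3, a male, had 3.14 CPM against up to 3.79 CPM in females. Cdkn1a differed by 0.29 (SE 0.13) with an adjusted p of 0.339. For the other 7 genes the size of the difference was at most 0.15.

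The level of cortical neuron markers moved with sex in these mice. The summed CPM of 6 such markers, which include Slc17a7 and Neurod6, was 466, 850 and 1777 in the males and lay between 41.6 and 346 in the females. The striatal sum was lowest in the WT male, at 2354 CPM, but the male KO replicate 1 reached 6125 CPM, above 3 of the 5 females. With the mean log2 CPM of the cortical markers added as a covariate, Cdkn1c differed by 0.51 between the sexes with an SE of 0.33 (adjusted p = 0.999 in edgeR). In a fit of genotype and the cortical level without sex, Cdkn1c changed by 0.14 (SE 0.034; adjusted p = 0.136) for each unit of that level. In the females alone, in order of rising cortical sum, Cdkn1c was 4.05 and 3.71 CPM in KO replicates 4 and 2. It was then 4.50, 5.02 and 4.46 CPM in WT replicates 3, 4 and 1. The KO females thus had both the lowest cortical sums and the lowest Cdkn1c, so genotype and cortical level cannot be told apart among the females. Sex and the level of cortical markers cannot be told apart in 8 mice of this make-up.

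**Figure D4:**
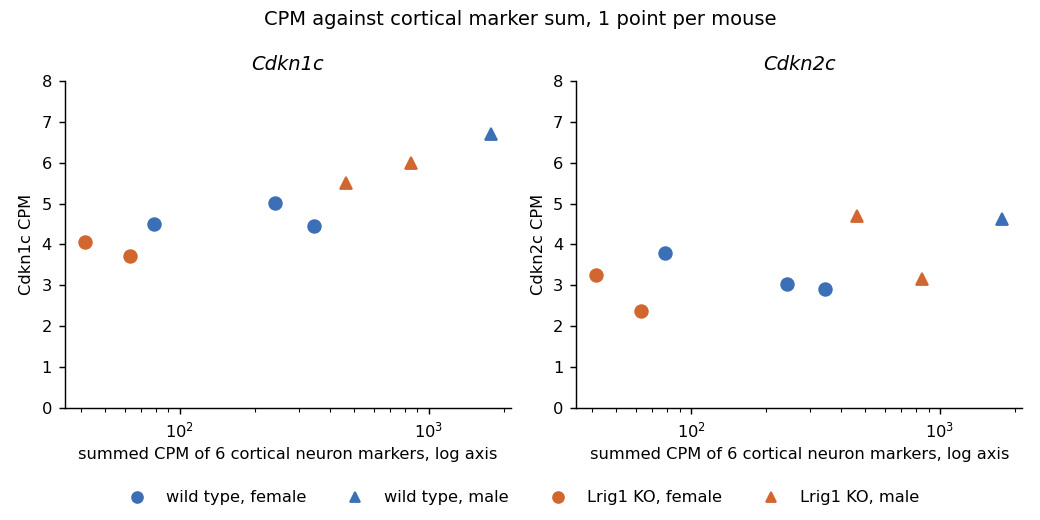
CPM of Cdkn1c (left) and Cdkn2c (right) against the summed CPM of 6 cortical neuron markers (log axis), 1 point per mouse, WT in blue and KO in orange, females as circles and males as triangles. The 3 males had both the highest cortical sums, from 466 CPM upwards, and the highest Cdkn1c, from 5.51 CPM upwards, while for Cdkn2c a male overlapped the females.

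The neighbours of these genes in the pathway were examined as 8 lists with 83 genes, of which 82 were tested. At an adjusted p under 0.1 the count was 0 in edgeR, and at an unadjusted p under 0.05 it was 4, or 4.88% against 1.88% of all genes tested, 3 of them lower in KO. WT and KO did not overlap in 2 of the 82 genes, against 1.53% of all genes tested. The G1 kinases Cdk4, Cdk6 and Cdk2, the E cyclins Ccne1 and Ccne2 and the phosphatase Cdc25a had a median log2 fold change of 0.05, and Cdk6 had the smallest p with -0.16 (SE 0.17). The relatives and partners of Rb1 (Rbl1, Rbl2, E2f1 to E2f8, Tfdp1 and Tfdp2) had a median of -0.02, with 0 of 12 past either threshold and E2f7, at -0.35 (SE 0.27), the one with the smallest p.

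The relatives and regulators of Trp53 (9 genes, among them Mdm2, Mdm4, Atm and Chek2) had a median of 0.008 and 0 of 9 past either threshold, with Ppm1d at -0.20 (SE 0.14) having the smallest p. Among 21 target genes of p53, which also count Mdm2, the median was 0.06 and 1 had an unadjusted p under 0.05. That gene was Rrm2b, a ribonucleotide reductase subunit, at 39.4 to 46.9 CPM in WT and 44.7 to 52.4 CPM in KO, so that the groups overlapped (log2 fold change 0.21, SE 0.079, adjusted p = 0.9998 in edgeR). Mdm2, the ubiquitin ligase that p53 induces and that degrades it, differed by -0.02 (SE 0.066).

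The genes that control the stability of p27 and the D cyclins included 2 of 8 with an unadjusted p under 0.05, both lower in KO, and the list had a median of -0.06. Ambra1, the adaptor of the ligase that degrades D cyclins, was at 65.9, 66.5, 66.5 and 74.03 CPM in WT replicates 1 to 4 and at 62.8, 60.9, 61.4 and 59.8 CPM in KO replicates 1 to 4. All 4 KO mice lay below all WT mice, with a log2 fold change of -0.16 (SE 0.060, adjusted p = 0.9998 in edgeR). Fbxo31, an F-box protein that targets cyclin D1 after DNA damage, was at 132.0 to 155 CPM in WT and 113 to 134 CPM in KO (log2 fold change -0.20, SE 0.078, the same adjusted p), and the groups overlapped. Skp2, which marks p27 for degradation, differed by -0.13 (SE 0.16).

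FOXO factors activate Cdkn1b and are known for keeping NSCs quiescent. All 4 had a log2 fold change below 0 (as had 8883 of all 17669 genes tested), with a median of -0.16, and 1 had an unadjusted p under 0.05. Foxo3 was at 115, 116, 109 and 109.5 CPM in WT replicates 1 to 4 and at 104.6, 79.9, 101 and 102.6 CPM in KO replicates 1 to 4. The KO mice again lay below the WT mice, KO replicate 2 by the most (log2 fold change -0.21, SE 0.090, adjusted p = 0.9998 in edgeR). Foxo1 ranged from 69.3 to 179 CPM in WT alone (log2 fold change -0.18, SE 0.29).

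The genes that E2F factors switch on for S phase and mitosis (22 genes, among them Pcna, Mcm2 and Mki67) showed 0 past either threshold and a median of -0.06. Of the 22, 19 lay below 0, against 8883 of all 17669 genes tested. The 22 genes were measured in the same mice and are not separate results, so the count of signs is a description. Mki67 had the smallest p, at -0.24 (SE 0.20). Their summed CPM was 143, 149, 171 and 158 in WT replicates 1 to 4 and 175, 132, 128 and 158 in KO replicates 1 to 4. KO replicate 1 was thus highest, and KO replicates 2 and 3 lowest, both in this sum and in Ccnd2.

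**Figure D5:**
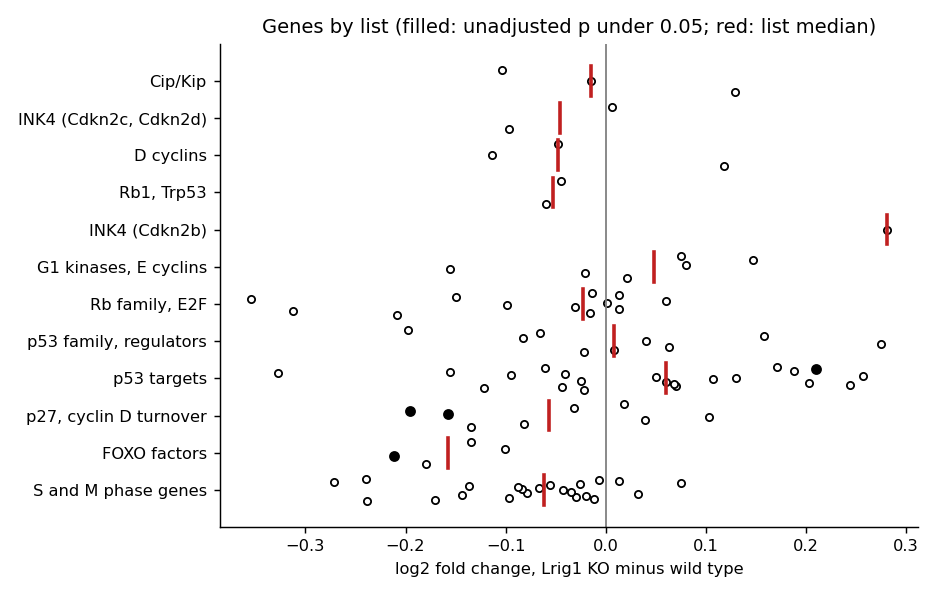
Log2 fold change, KO minus WT, of the 10 genes (top 4 rows) and of the other pathway genes tested, 1 point per gene and 1 row per list, with the list median in red and an unadjusted p under 0.05 marked by a filled point. The 4 filled points are Rrm2b at 0.21, Ambra1 at -0.16, Fbxo31 at -0.20 and Foxo3 at -0.21, and none belongs to the 10 genes.

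The variation left between mice was described by the gene, outside the 10, whose log2 CPM was most like that of each gene over the 8 mice after the genotype means were subtracted. The 8 points share their library, depth and mix of tissue, and the gene was picked as the highest of all genes tested, so that r is a description. For Ccnd2 it was Hmgb2, a chromatin protein abundant in dividing cells (Pearson's r = 0.993). For Trp53 it was Cdc25c, a phosphatase that acts at entry into mitosis (r = 0.982), at 0.491 CPM on average. For Cdkn2c it was Arntl, a core transcription factor of the circadian clock (r = 0.979). Cdkn1c was nearest to Pi4ka, a lipid kinase (r = 0.989), and 256 genes had an r over 0.9 with it, the most of the 10, while Ccnd1, nearest to Rp1 (r = 0.970), had 27, the fewest. The remaining genes were nearest to F630042J09Rik for Cdkn1a (r = 0.986), Tlr6 for Cdkn1b (r = 0.987), Gm33027 for Cdkn2d (r = 0.977), Sardh for Ccnd3 (r = 0.994) and Hnrnpul2 for Rb1 (r = 0.991). Like Cdc25c, some of these were low on average: Rp1 at 0.301, Tlr6 at 0.597, Gm33027 at 1.62 and F630042J09Rik at 2.54 CPM. Hmgb2, Sardh, Arntl, Hnrnpul2 and Pi4ka averaged between 13.3 and 278 CPM. Among the 10 themselves the highest pair was Cdkn2c with Ccnd2 (r = 0.871) and the lowest Cdkn1a with Ccnd3 (r = -0.864).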

How the data were processed

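PolyA-selected RNA of 8 mice was sequenced on 1 NovaSeq lane. The authors made FASTQ files with bcl2fastq 2.20 and ran Salmon (version not given in the sources used here) on the Gencode M29 transcripts (GRCm39). The deposited files hold 1 gene table of estimated counts that were not normalized, and per mouse a transcript table of estimated counts, TPM, length and effective length. How transcripts were summed to genes is not stated, but for 10 of 10 genes here the transcript sums matched the gene counts within 1 read in every mouse. Transcripts were given genes through Gencode M21 of GRCm38, which matched 97.4% of them, and RefSeq promoter windows (GRCm38.p6, an older build than that of the authors) were held for Cdkn1a, Cdkn1b, Cdkn2c, Cdkn2d, Ccnd3 and Trp53.

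Counts were rounded and KO was compared with WT in edgeR 4.0.16 (R 4.3.3) with TMM factors, the filterByExpr filter and the quasi-likelihood test on genotype alone, with P-values adjusted by Benjamini and Hochberg's method over 17669 genes and a threshold of 0.1. CPM are TMM-normalized. The SE is the log2 fold change over the root of F, and intervals come from the same fit. Shares and TPM levels were not tested. P-values set the difference between the groups against the spread between mice, estimated with information from all genes. With 1 library per mouse, biological and technical spread are not separated.

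The 10 genes, the lists and the alternatives were chosen with earlier results of these data known. By rule the text names the 10 genes, Lrig1, Cdkn2a, Cdkn2b, in each pathway list the gene with the smallest p and any gene past an adjusted p of 0.1 or an unadjusted p of 0.05, and for each of the 10 the gene most like it. Mdm2, Skp2, Foxo1, the pseudogenes, the marker genes and the comparison of the sexes were added after values were seen. Alternatives were sex, replicate number or the cortical marker level as a covariate, DESeq2 1.42.0 or its size factors, no filter, at least 10 counts in every mouse, transcript sums with length offsets, females alone, and each mouse left out. DESeq2 with sex was added later.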

Additional observations from a re-analysis of the deposited data

Results flagged for a closer look

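Groups of 4 mice were examined for the 10 genes and the library totals in each genotype, 22 groups in all. In 3 of these groups, 1 mouse stood apart from the other 3 in Dixon's outlier test, where chance gives about 1 in 20 groups. The test takes the gap to the nearest mouse as a share of the group's range. The share was at least 0.864 in these 3 groups and at most 0.754 in the others. KO replicate 1 stood apart for Cdkn1b, at 47.2 CPM against 51.2 to 51.7 CPM in the other KO mice. WT replicate 1 did so for Ccnd1, at 26.7 CPM against 36.3 to 37.8 CPM in the other WT mice. WT replicate 4 did so for Trp53, at 18.8 CPM against 16.6 to 16.9 CPM in the other WT mice. The 3 values belong to 3 different mice and genes.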

How the results depend on the processing

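Of 180 values of the 10 log2 fold changes under the alternatives, 166 kept their direction, 14 changed it and 0 passed an adjusted p of 0.1. The lowest adjusted p was 0.723, for Cdkn1c with sex as a covariate (log2 fold change -0.25), where the unadjusted p was 0.0525. Cdkn1a, Ccnd1, Ccnd2, Rb1 and Trp53 kept their direction in all 18 alternatives each. The direction changed for Cdkn2d with sex as a covariate (-0.0085) and in DESeq2 with sex (-0.012), for Cdkn1c with the cortical level as a covariate (0.021), and in females alone for Cdkn1b (0.012) and Ccnd3 (0.014). Leaving out 1 mouse at a time gave log2 fold changes between 0.047 and 0.21 for Cdkn1a, -0.026 and 0.016 for Cdkn1b, -0.23 and 0.045 for Cdkn1c, -0.30 and 0.046 for Cdkn2c, -0.059 and 0.056 for Cdkn2d, 0.016 and 0.17 for Ccnd1, -0.24 and -0.020 for Ccnd2, -0.099 and 0.026 for Ccnd3, -0.098 and -0.027 for Rb1, and -0.074 and -0.0008 for Trp53. The median over the 10 genes lay between -0.063 and 0.012 in these fits.

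The replicate numbers did not pair the mice (correlations of same-numbered mice 0.077, -0.22, -0.22 and 0.27), and a fit with replicate as a block gave 0 of 10 past an adjusted p of 0.1 and a median of -0.045, with no change of direction. Over all genes the count past the threshold was 1 in the main fit, 0 with the replicate block, 2 with sex as a covariate, 12 in DESeq2 and 201 in DESeq2 with sex.

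Between the sexes, 1 of the 10 genes passed, and 0 did with the cortical level as a covariate, without the genotype term or in KO mice alone. The count lay between 0 and 1 with each mouse left out, with Cdkn1c passing only without WT replicate 4 or without KO replicate 1, and adjusted p values of 0.0518 to 0.585. For Cdkn2c the difference was 1.48 (SE 0.39, adjusted p = 0.999 in edgeR) with the cortical level as a covariate. At this depth Cdkn2a, with at most 4 counts in a mouse, could not be tested. The cause of the changes with setting was not tested.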
